A study of Mus musculus with 15 samples.

Results

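The genes described here are the transcription factors of the p53 family (Trp53, Trp63 and Trp73), the p53 inhibitors Mdm2 and Mdm4, and 5 genes that p53 is known to switch on (Ccng1, Zmat3, Sesn1, Sesn2 and Trp53inp1). They were listed by name, with earlier results of these data known. They are 10 of the 36528 genes listed, each was found under its symbol, and all 10 passed the filter on low counts that left 17282 genes for testing.

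p53, encoded by Trp53, is a transcription factor that stress and DNA damage stabilise and that halts division or starts cell death through its target genes. Mdm2 encodes the ubiquitin ligase that marks p53 for degradation and is itself a p53 target, which closes a feedback loop, and Mdm4 encodes a relative of Mdm2 that blocks p53 activity. In skin, p63 is the family member that keeps the basal layer of the epidermis in its stratified fate, and loss of p53 together with loss of Ptch1 drives basal cell carcinoma in mouse models.

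Polyadenylated RNA was sequenced from laser-captured nests of basal cell carcinoma in frozen mouse skin. All 15 libraries, untreated ones included, came from animals labelled K14Cre-ER, Ptch1fl/fl, p53fl/fl and Lgr5GFP, in which a tamoxifen-activated Cre recombinase under the keratin 14 promoter is meant to delete the floxed Ptch1 and p53 alleles in keratin 14-expressing epithelium. The 3 groups of 5 libraries were nests that remained after 28 days on vismodegib, an inhibitor of the Hedgehog transducer Smoothened, nests of untreated animals staining for Ki67, a marker of dividing cells, and untreated nests without that stain. No group labelled as having unfloxed Trp53 was analysed here, so the levels below compare nests of the same labelled genotype.

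The labels do not say which animal a library came from. More than 1 nest of the same animal may be in a group, and the p-values of the vismodegib comparisons below are then too small. Untreated animals may also have given nests to both untreated groups. The fit takes no account of such a pairing, so p-values between the untreated groups may be too small or too large. The labels number no replicates, so libraries are numbered in the order of their records and the numbers pair nothing. The Ki67-negative libraries were recorded apart from the other 10, and a batch of their own, if there was one, cannot be told apart from the group. Total counts ranged from 4887381 to 10328822 per library, and the members reached between 32 (Sesn2) and 15728 (Trp63) counts in a library. Xist exceeded Ddx3y in 3 vismodegib, 1 Ki67-positive and 1 Ki67-negative library, so both sexes were present in unequal numbers.

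Marker genes of other cell types also differed in level between groups. The summed level of 10 suprabasal epidermis markers was 3705 to 5874 CPM (the count divided by the TMM-scaled library size, times 1000000) in the vismodegib libraries, against 397.8 to 1099 in the Ki67-positive and 311.9 to 994.5 in the Ki67-negative libraries. Summed over 7 dendritic and Langerhans cell markers the ranges were 709.4 to 2123, 68.94 to 431.1 and 115 to 423.4 CPM. The 7 fibroblast markers summed to 408.2 to 3527 CPM with vismodegib, 1623 to 5645 in Ki67-positive and 2418 to 4529 in Ki67-negative nests, and the 5 melanocyte markers to 54.36 to 321, 293.5 to 1457 and 150.3 to 1140 CPM. The ranges for 5 pericyte and smooth muscle markers were 36.12 to 53.64, 61.12 to 125.2 and 78.66 to 146.2 CPM, and those for the 4 T cell markers found were 32.97 to 94.62, 10.54 to 32.15 and 6.92 to 42.84 CPM. The 6 macrophage markers (85.58 to 286.6, 32.1 to 165.5 and 72.55 to 218.4 CPM) and the 5 endothelial markers (17.76 to 45.07, 11.37 to 50.83 and 9.17 to 76.95 CPM) overlapped between groups. So did the fibroblast and melanocyte sums, and the T cell sums of vismodegib and Ki67-negative nests. Markers of the labelled tumour epithelium, 8 genes, summed to 10850 to 13970, 9148 to 9952 and 8025 to 9531 CPM, a sum that joins opposite changes. Of these 8, Krt5, Krt14 and Krt15 were called higher with vismodegib in both comparisons (mean Krt15 2646 against 580.2 and 662.1 CPM). The Hedgehog targets Ptch1 (mean 548.8 against 2964 and 3136 CPM) and Gli1 (75.33 against 338.6 and 383.3 CPM) were called lower in both, as was Cdh3, and Krt17 was called lower against Ki67-positive nests. Ptch1 is itself floxed in these animals, so a count over its full gene model would join reads of intact and deleted alleles. No marker of any list was at 0 in every library of a group. The part of these cell types in the results below was not tested, and in bulk tissue fewer cells of a type and less RNA per cell cannot be told apart. Whether these transcripts came from other cells or from the tumour epithelium itself was not tested either.

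Of the 10 members, 3 were called against Ki67-positive nests (1 higher, 2 lower) at an adjusted p under 0.05, 2 against Ki67-negative nests (both lower), and 0 between the untreated groups. Mdm2 and Zmat3 fell with vismodegib against both untreated groups, and Sesn1 rose against Ki67-positive nests. These counts stand beside a broad change of the transcriptome: 26.0% of all genes tested were called in the first comparison (12.6% higher, 13.4% lower) and 31.9% in the second (15.4% higher, 16.5% lower). The shares of members called, 30% and 20%, are near this background. Between Ki67-negative and Ki67-positive nests 0.174% of all genes were called, each of them lower in Ki67-negative nests. In that comparison 1154 of the 17282 genes had an unadjusted p under 0.05, the background for such counts below. The median log2 fold change of the members was -0.20 against Ki67-positive and -0.25 against Ki67-negative nests, beside -0.02 and -0.03 over all genes.

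**Figure D1:**
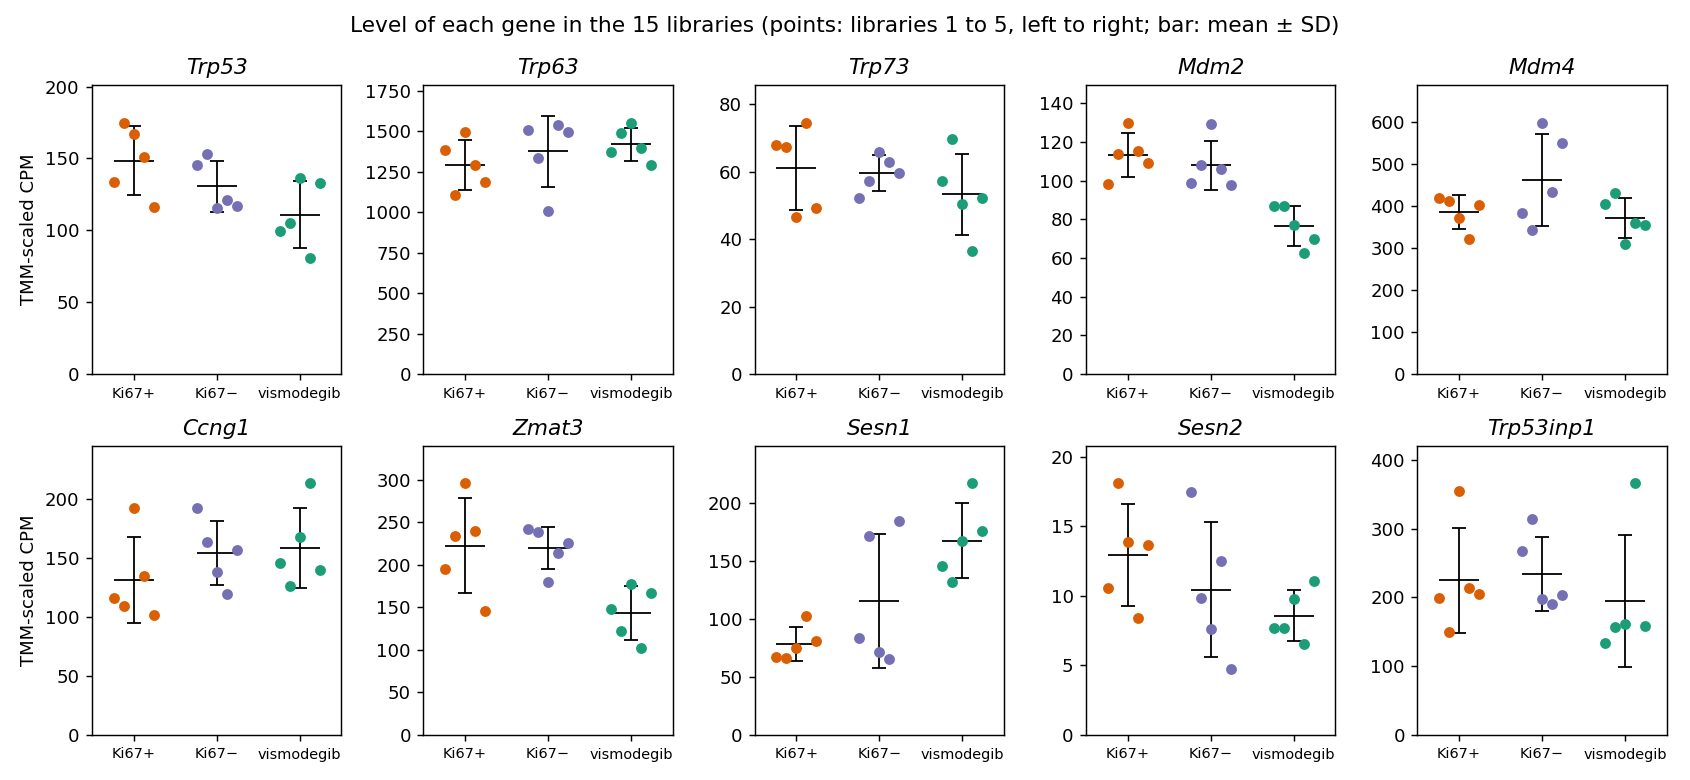
Level of each of the 10 genes in the 15 libraries, in TMM-scaled CPM on a linear axis from 0. Points are libraries 1 to 5 of each group from left to right, and bars give the mean ± SD of 5. Mdm2 in all 5 vismodegib libraries (62.8 to 86.8) lies under every untreated library, Sesn1 (131.4 to 216.5) lies above every Ki67-positive library, and 2 Ki67-negative libraries share the vismodegib range of Sesn1.

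Per length of transcript, as deposited RPKM, Trp63 was the most abundant member in each group, at 54.8 ± 3.97 with vismodegib, 50.4 ± 5.62 in Ki67-positive and 54.0 ± 8.23 in Ki67-negative nests (SD, n = 5 each). Its level was far above the next gene, which was Mdm4 with vismodegib (14.1 ± 1.75) and in Ki67-negative nests (17.8 ± 4.51), and Trp53 in Ki67-positive nests (18.1 ± 2.9). Sesn2 was lowest in each group, at 0.883 ± 0.184, 1.35 ± 0.392 and 1.09 ± 0.497, and Trp73 stood next above it among the members, at 2.41 ± 0.529, 2.8 ± 0.57 and 2.75 ± 0.278. In vismodegib nests Mdm4, Sesn1 (13.8 ± 2.83), Trp53 (13.35 ± 2.75), Ccng1 (12.4 ± 2.8) and Trp53inp1 (9.91 ± 5.02) followed each other with no gap larger than both SDs. In Ki67-positive nests the order from Mdm4 through Trp53inp1, Ccng1, Mdm2 and Zmat3 to Sesn1 (6.5 ± 1.2) likewise held no gap larger than both SDs, and in Ki67-negative nests the neighbours Ccng1, Trp53inp1, Sesn1 and Mdm2 did not differ beyond theirs.

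Trp53 transcripts were present in every library although the gene is floxed and targeted in the tumour epithelium. The gene lies on GRCm38 chr11:69580348-69591873, and a count over the full gene model would join reads of intact and deleted alleles. No value within the floxed part was examined, so these counts do not show whether the gene was deleted. Its level was 99.5, 105.4, 136.6, 80.7 and 132.6 CPM in vismodegib libraries 1 to 5, 133.5, 174.9, 167.3, 150.7 and 116.3 in the Ki67-positive libraries, and 145.4, 153.3, 115.8, 121.0 and 117.2 in the Ki67-negative libraries. Vismodegib libraries 1, 2 and 4 lay under every untreated library and libraries 3 and 5 among them, so the groups overlapped. The log2 fold change was -0.42 ± 0.16 (SE) against Ki67-positive nests (adjusted p = 0.0573, edgeR quasi-likelihood test) and -0.23 ± 0.16 against Ki67-negative nests (adjusted p = 0.271), neither past the threshold. The first value passed when vismodegib library 3 (-0.50, adjusted p = 0.0362), vismodegib library 5 (-0.49, 0.0448) or Ki67-positive library 5 (-0.49, 0.0344) was left out. It also passed with upper quartile factors (adjusted p = 0.0361), total counts (0.0355), limma voom (0.0478) and the stricter filter (0.0477).

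Trp63, which encodes the p63 protein of basal epidermal cells, varied least of the members with vismodegib (coefficient of variation 7.23%). It reached 1290.8 to 1552.0 CPM with vismodegib (median 1393), 1105.8 to 1496.6 in Ki67-positive nests (median 1290) and 1006.0 to 1535.0 in Ki67-negative nests (median 1495). The groups overlapped, although 3 of the 5 Ki67-positive libraries lay under every vismodegib library. The log2 fold changes of 0.14 ± 0.13 (adjusted p = 0.464) and 0.04 ± 0.13 (adjusted p = 0.816) did not pass. The gene spans chr16:25683763-25892088, and its count joins the full-length isoforms and those that lack the transactivation domain, which act differently. The small gene Gm24928 lies within its span.

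Trp73, whose p73 protein is known for its part in multiciliated cells and neurons, was detected in every library at 244 to 655 counts. Its level ran from 36.5 to 69.8 CPM with vismodegib, 46.6 to 74.6 in Ki67-positive and 52.1 to 66.0 in Ki67-negative nests. The log2 fold changes were -0.20 ± 0.17 (adjusted p = 0.432) and -0.16 ± 0.17 (adjusted p = 0.503). Only 4 of 10 genes of the multiciliogenesis program reached the filter, and of these Rfx3, a transcription factor of ciliated cells, was called lower in both vismodegib comparisons (-0.93 ± 0.16, adjusted p = 0.000258, and -1.02 ± 0.16, adjusted p = 9.88e-05). The share of these 4 genes called was 25% in each of these comparisons, beside 26.0% and 31.9% of all genes. Between the untreated groups 0 of them were called by edgeR, DESeq2 and limma voom, with 0 at an unadjusted p under 0.05. The list gave 2 calls against Ki67-negative nests without vismodegib library 2 or without Ki67-negative library 1, and also with limma voom or with Xist as a covariate.

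Mdm2 was lower after vismodegib in every library. It reached 86.6, 86.8, 76.8, 62.8 and 69.6 CPM in the vismodegib libraries, 98.4, 113.8, 129.9, 115.3 and 109.0 in the Ki67-positive libraries and 98.6, 108.1, 129.3, 105.7 and 97.8 in the Ki67-negative libraries. The highest vismodegib library thus lay under the lowest untreated one, and the untreated groups overlapped. Against Ki67-positive nests the level was 1.48-fold lower, a log2 fold change of -0.57 ± 0.13 (adjusted p = 0.00305), and against Ki67-negative nests 1.41-fold lower (-0.50 ± 0.13, adjusted p = 0.00691). Groups without overlap were seen for 20.3% of all genes in the first comparison (10.2% with vismodegib higher, 10.1% lower) and for 20.5% in the second (10.4% higher, 10.1% lower). Both calls held in each of the 24 alternatives, 15 of them leaving out 1 library, with log2 fold changes from -0.63 to -0.50 and from -0.55 to -0.42.

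The 250 bases before the start of Mdm2 and of Sesn1 are shown because these are the 2 members whose vismodegib libraries stood apart from all Ki67-positive libraries. They are the RefSeq sequences of GRCm38.p6, on the strand of the gene, and capitals mark an exact match on either strand to the p53 decamer, the unit that p53 response elements hold in pairs. Mdm2 is read from chr10:117710759-117711008 on the minus strand, and Sesn1 has a start at the 5′ end of the gene (chr10:41810324-41810573, plus strand) and another within its span (chr10:41887189-41887438, plus strand).
Mdm2: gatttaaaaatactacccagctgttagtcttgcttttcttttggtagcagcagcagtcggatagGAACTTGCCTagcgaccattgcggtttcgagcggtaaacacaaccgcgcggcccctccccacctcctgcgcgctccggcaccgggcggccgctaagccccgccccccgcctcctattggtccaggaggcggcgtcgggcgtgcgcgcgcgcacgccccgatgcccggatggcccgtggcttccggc
Sesn1, first start: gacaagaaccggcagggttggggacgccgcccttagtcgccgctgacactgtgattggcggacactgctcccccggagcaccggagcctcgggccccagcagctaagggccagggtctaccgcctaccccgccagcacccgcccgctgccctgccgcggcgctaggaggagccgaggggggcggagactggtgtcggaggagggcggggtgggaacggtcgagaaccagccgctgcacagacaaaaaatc
Sesn1, inner start: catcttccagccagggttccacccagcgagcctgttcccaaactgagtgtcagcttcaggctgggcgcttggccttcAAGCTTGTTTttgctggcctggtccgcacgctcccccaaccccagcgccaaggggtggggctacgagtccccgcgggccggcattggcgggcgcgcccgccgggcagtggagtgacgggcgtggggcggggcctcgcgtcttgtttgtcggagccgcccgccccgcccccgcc
The Mdm2 window holds the decamer GAACTTGCCT, which begins 186 bases before the start, and the window of the inner Sesn1 start holds AAGCTTGTTT, 173 bases before it. The window of the first Sesn1 start holds none. Among the 7 members with a sequence (10 windows), Trp53 and Ccng1 also held 1 match each (GGACTTGCCC and GGGCAAGCCT), and Mdm4, Sesn2 and Trp73 held none. Of 32851 promoter windows of this length, 7.13% hold such a match. A match describes the letters and is not a site shown to be used. Only the 250 bases before each listed start were searched, and the rest of each gene, Mdm2 included, was not. Counts over the whole gene do not tell which Sesn1 start was used. Zmat3, Trp63 and Trp53inp1 were not analysed here for promoters.

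Mdm4, the other inhibitor, was not called in either vismodegib comparison. It reached 405.6, 431.5, 310.0, 360.2 and 355.0 CPM with vismodegib, 420.7, 411.4, 372.9, 323.1 and 403.7 in Ki67-positive nests and 384.8, 342.5, 599.3, 434.1 and 550.2 in Ki67-negative nests. Ki67-negative libraries 3 and 5 stood above all 13 others, and the remaining libraries overlapped. Of all libraries, Ki67-negative library 3 had the lowest total count (4887381) and library 5 the fewest genes with a count (19669). The part of library quality in these Mdm4 values was not tested. The log2 fold change was -0.05 ± 0.15 against Ki67-positive (adjusted p = 0.831) and -0.31 ± 0.15 against Ki67-negative nests (adjusted p = 0.119), and the latter passed without Ki67-negative library 2 (-0.40, adjusted p = 0.0482). Its span overlaps the predicted genes Gm29257 and Gm41953, whose reads may not be separable where strand was not used.

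**Figure D2:**
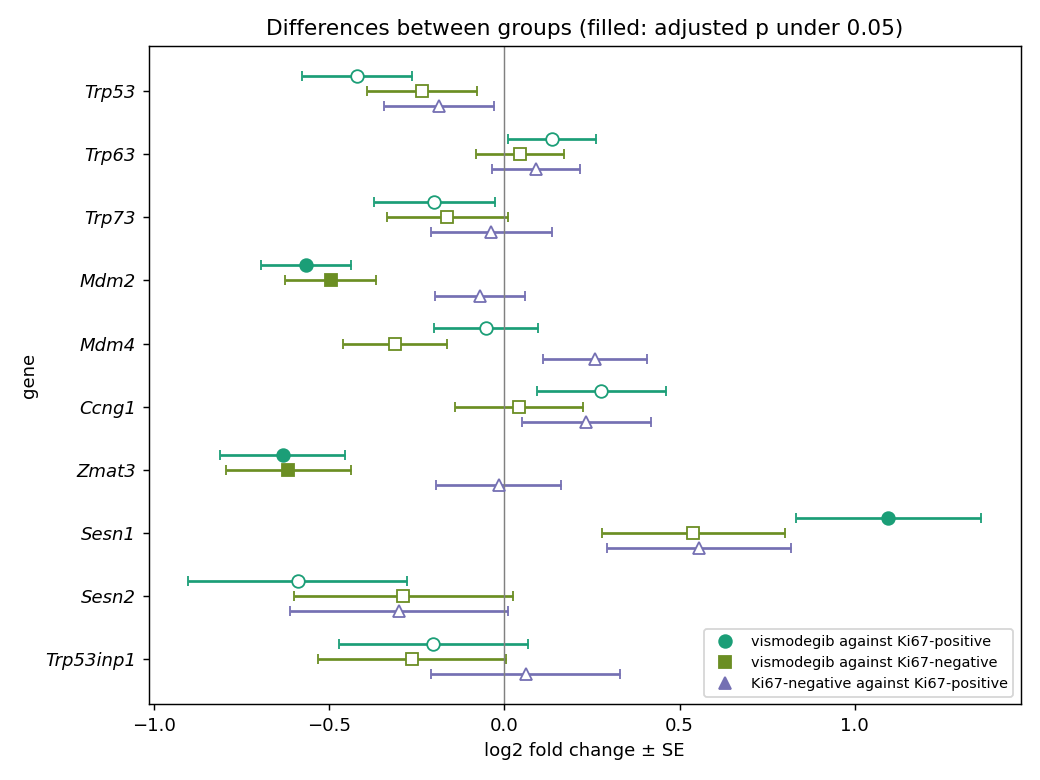
Log2 fold change with its standard error for each gene in the 3 comparisons, from 1 fit over 15 libraries. Filled symbols passed an adjusted p of 0.05. Mdm2 (-0.57 and -0.50) and Zmat3 (-0.63 and -0.62) are filled on the left in both vismodegib comparisons, Sesn1 (1.10) is filled on the right against Ki67-positive nests, and no triangle is filled.

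Zmat3, which encodes an RNA-binding splicing regulator that p53 induces, fell with vismodegib in both comparisons. Its levels were 147.6, 122.5, 177.6, 101.6 and 167.2 CPM with vismodegib, 195.6, 233.8, 295.7, 240.2 and 145.3 in Ki67-positive nests and 241.8, 238.0, 179.2, 214.2 and 225.3 in Ki67-negative nests. All Ki67-negative libraries lay above all vismodegib libraries, by a narrow gap (179.2 against 177.6), whereas Ki67-positive library 5 lay inside the vismodegib range. The level was 1.55-fold lower against Ki67-positive (log2 fold change -0.63 ± 0.18, adjusted p = 0.0137) and 1.53-fold lower against Ki67-negative nests (-0.62 ± 0.18, adjusted p = 0.0138). Both calls held in each alternative, with adjusted p from 0.00328 to 0.0466 and from 0.0066 to 0.0365. The gene lies on chr3:32334792-32365665 and overlaps 4930429B21Rik.

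Sesn1, a sestrin that restrains mTORC1 when leucine is scarce and a target of both p53 and FoxO factors, showed the largest change among the members. It reached 145.4, 131.4, 167.2, 216.5 and 175.9 CPM with vismodegib, 67.2, 66.5, 74.4, 102.4 and 80.6 in Ki67-positive nests, and 83.0, 171.1, 71.3, 65.7 and 184.0 in Ki67-negative nests. Every vismodegib library exceeded every Ki67-positive one. The Ki67-negative libraries fell into 3 low values like those of the Ki67-positive group and 2 high ones, libraries 2 and 5, inside the vismodegib range. Against Ki67-positive nests Sesn1 rose 2.14-fold, a log2 fold change of 1.10 ± 0.26 (adjusted p = 0.00496), and this call held in each alternative (0.99 to 1.21). Against Ki67-negative nests the log2 fold change was 0.54 ± 0.26 (adjusted p = 0.125). It passed without Ki67-negative library 2 (0.72, adjusted p = 0.0477) or without Ki67-negative library 5 (0.77, adjusted p = 0.0268). The difference between the vismodegib comparisons is the contrast of Ki67-negative with Ki67-positive nests, 0.56 ± 0.26, with an unadjusted p of 0.0484 and an adjusted p of 0.745 in edgeR. Suprabasal markers summed to 631.6 and 481.9 CPM in Ki67-negative libraries 2 and 5, within the range of the other 3 of that group (311.9 to 994.5). Library 2 held the highest dendritic and Langerhans (423.4 CPM), fibroblast (4529) and melanocyte (1140) sums of its group. Library 5 lay inside the group's range for these (335, 4063 and 565.1), and had the fewest genes with a count of all libraries (19669). The part of other cells or of library quality in these Sesn1 values was not tested.

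Sesn2, the stress-induced sestrin that p53 and Atf4 both activate, was the lowest member, at 32 to 117 counts a library. It reached 7.68, 7.72, 9.77, 6.55 and 11.1 CPM with vismodegib, 10.6, 18.1, 13.9, 8.43 and 13.7 in Ki67-positive nests and 17.5, 9.88, 7.65, 12.5 and 4.77 in Ki67-negative nests. The groups overlapped, and the spread was widest in Ki67-negative nests (coefficient of variation 46.5%). The log2 fold changes of -0.59 ± 0.31 (adjusted p = 0.178) and -0.29 ± 0.31 (adjusted p = 0.511) did not pass, and a change of the size seen for Mdm2 is within about 2 standard errors of 0 at this depth and spread.

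The third sestrin, Sesn3, known as a FoxO target and not itself a member, fell where Sesn1 rose. It reached 24.1, 12.9, 21.6, 22.4 and 23.8 CPM with vismodegib, 33.8, 35.3, 66.7, 46.9 and 62.5 in Ki67-positive nests and 55.2, 34.9, 39.5, 23.6 and 25.2 in Ki67-negative nests. Vismodegib libraries lay below all Ki67-positive libraries, and Ki67-negative library 4 lay among them. Sesn3 had a log2 fold change of -1.22 ± 0.26 against Ki67-positive nests (adjusted p = 0.00169) and against Ki67-negative nests (-0.76 ± 0.26, adjusted p = 0.0303). The latter call ended when vismodegib library 2 (adjusted p = 0.0681) or 3 (0.0543) or Ki67-negative library 1 (0.098) or 3 (0.0616) was left out, and with limma voom (0.0561) or Xist as a covariate (0.0608). Of the summed sestrin RPKM, Sesn1 made up 79.3% ± 3.14 with vismodegib, 46.3% ± 6.84 in Ki67-positive and 60.4% ± 15.3 in Ki67-negative nests (SD, n = 5). In Ki67-negative libraries 2 and 5 the share was 72.1% and 80.3%, and in the 3 others 43.6% to 55.7%. The summed sestrin RPKM overlapped between the groups, at 17.3 ± 3.18, 14.1 ± 2.44 and 15.3 ± 4.38. The other paralogues tested (Ccng2, Trp53inp2, Zmat1, Zmat2 and Zmat5) were not called in either vismodegib comparison, and with no filter on low counts the 7 paralogues gave 2 calls in each. With the filter, 16.7% of the 6 tested paralogues were called in each vismodegib comparison, below the 26.0% and 31.9% of all genes. Of these 6 paralogues 0 were called between the untreated groups by edgeR, DESeq2 and limma voom, and 1 had an unadjusted p under 0.05.

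**Figure D3:**
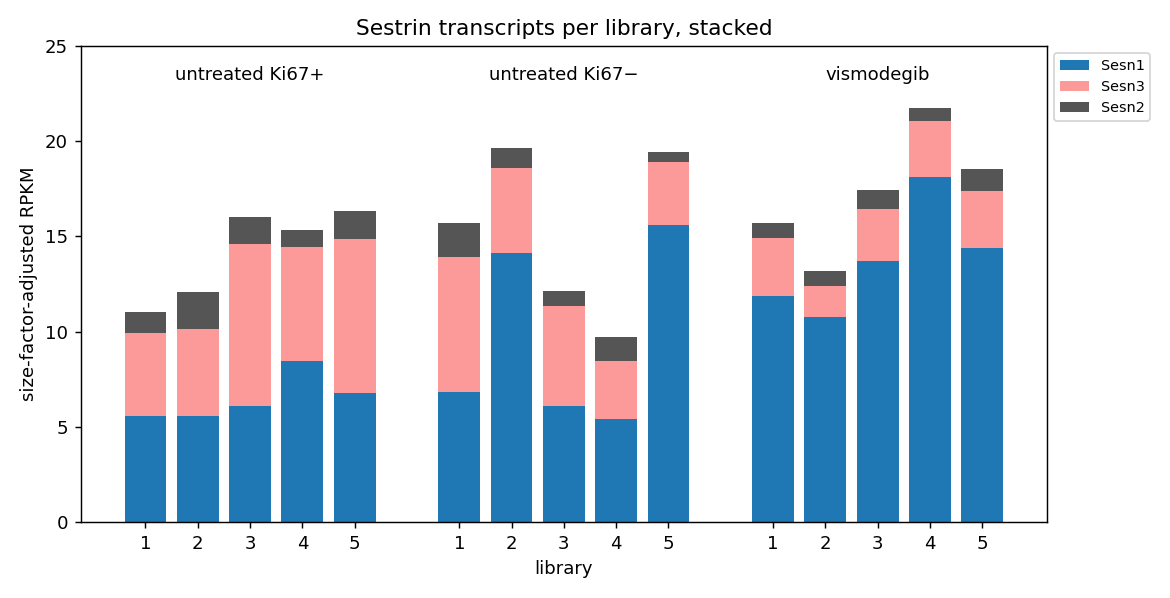
Deposited size-factor-adjusted RPKM of Sesn1, Sesn3 and Sesn2 stacked for each library, on a linear axis from 0. Sesn1 takes 75.6% to 83.5% of the bar in vismodegib libraries, 38.1% to 55.2% in Ki67-positive libraries, and 72.1% and 80.3% in Ki67-negative libraries 2 and 5.

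Ccng1, which encodes cyclin G1, a p53 target that in turn acts on Mdm2, did not pass in any comparison. It reached 146.0, 126.4, 167.9, 213.1 and 139.5 CPM with vismodegib, 115.9, 109.5, 192.4, 134.9 and 102.0 in Ki67-positive nests and 192.1, 163.8, 137.9, 119.6 and 157.0 in Ki67-negative nests. The ranges overlapped, with single high libraries in the first and second group. The log2 fold changes were 0.28 ± 0.18 (adjusted p = 0.294) and 0.04 ± 0.18 (adjusted p = 0.885).

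Trp53inp1, which encodes a nuclear and autophagy protein that p53 and p73 induce, had 1 library far from the rest of its group with vismodegib. It reached 133.8, 157.6, 160.7, 365.8 and 157.9 CPM with vismodegib, 199.0, 150.2, 354.1, 214.1 and 205.4 in Ki67-positive nests and 267.4, 313.7, 197.7, 189.8 and 202.8 in Ki67-negative nests. Apart from library 4, the vismodegib libraries and Ki67-positive library 2 were the lowest 5 of all 15. The log2 fold changes were -0.20 ± 0.27 (adjusted p = 0.627) and -0.26 ± 0.27 (adjusted p = 0.485). Without vismodegib library 4 they were -0.55 (adjusted p = 0.0647) and -0.62 (adjusted p = 0.0349). The second, not called with all libraries, passed only when this library was left out. The same library held the highest Ccng1, Sesn1 and Trp53inp1 and the lowest Trp53, Trp73, Mdm2 and Zmat3 of all 15. It also held the highest sum of suprabasal markers (5874 CPM) and the lowest sum of dendritic and Langerhans markers (709.4 CPM) of the vismodegib group, and the part of these cells was not tested.

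Between untreated Ki67-negative and Ki67-positive nests, 0 of 10 members were called by edgeR, by DESeq2 and by limma voom. Of all 17282 genes 1154 had an unadjusted p under 0.05, and Sesn1 was the 1 member that did. Its 2 high Ki67-negative libraries are described above. The other 9 had log2 fold changes from -0.30 (Sesn2) to 0.26 (Mdm4), with adjusted p from 0.81 to 0.99. None of the 10 separated the untreated groups, which 1.18% of all genes did (0.330% with Ki67-negative nests higher, 0.851% lower).

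Beyond the members, 58 of 60 p53 target genes passed the filter. Against Ki67-positive nests 9 rose and 14 fell (median log2 fold change -0.25, beside -0.02 over all genes), and against Ki67-negative nests 8 rose and 16 fell (median -0.17, beside -0.03). The share called was 39.7% and 41.4%, beside 26.0% and 31.9% of all genes. Leaving out 1 library changed the first count of 23 to between 17 and 25, and the second count of 24 to between 19 and 25. In the other settings the counts were 18 to 24 and 22 to 25. Between the untreated groups 0 of 58 were called by edgeR, DESeq2 and limma voom. At an unadjusted p under 0.05 there were 4 of the 58, beside 1154 of all 17282 genes. Targets thus moved in both directions.

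Ptprv, which encodes a phosphatase linked to p53-dependent arrest in mouse cells, moved most. It reached 8.45, 2.68, 6.22, 4.85 and 4.96 CPM with vismodegib, 121.2, 81.9, 149.8, 104.8 and 81.0 in Ki67-positive nests and 145.9, 95.4, 25.4, 84.9 and 130.5 in Ki67-negative nests, with no overlap. The level was 19.8-fold lower against the first (log2 fold change -4.30 ± 0.41, adjusted p = 1.52e-06) and 17.7-fold lower against the second (-4.14 ± 0.41, adjusted p = 1.9e-06). Its span overlaps Ptpn7, so reads of the 2 genes may not be separable without strand. Gadd45a, a growth arrest and DNA damage gene, fell by 1.94 and 1.95 on the log2 scale (SE 0.29 each, adjusted p = 6.89e-05 and 5.81e-05). Ptp4a3, another phosphatase gene, fell by 1.74 and 2.01. Perp, which encodes a desmosome protein that both p53 and p63 are known to activate, rose 2.44-fold and 2.79-fold (log2 fold change 1.29 ± 0.24, adjusted p = 0.000711, and 1.48 ± 0.24, adjusted p = 0.000196). Nupr1, a stress-induced nuclear protein gene, rose by 1.73 and 0.99. Each of these calls held in the 24 alternatives.

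Cdkn1a, the gene of the cell cycle inhibitor p21 and the best known p53 target, is given here although the naming rule did not pick it, after its values were seen. It reached 192.4, 113.8, 182.5, 124.0 and 164.3 CPM with vismodegib, 93.7, 78.2, 139.1, 91.0 and 61.1 in Ki67-positive nests and 100.1, 92.5, 54.4, 161.0 and 86.2 in Ki67-negative nests. The groups overlapped through Ki67-positive library 3 and Ki67-negative library 4. Its log2 fold change was 0.75 ± 0.25 against Ki67-positive nests (adjusted p = 0.0369) and 0.65 ± 0.25 against Ki67-negative nests (adjusted p = 0.0567). The first call was lost without vismodegib library 1, 3 or 5 (adjusted p = 0.085, 0.0845 and 0.0688), without Ki67-positive library 1, 2, 4 or 5 (0.0593, 0.0838, 0.0691 and 0.0888), with total counts (0.0619) and with no filter (0.0519). The second passed without vismodegib library 2 (0.0382), Ki67-positive library 3 or 5 (0.0422 and 0.0486) or Ki67-negative library 4 (0.00672), and with DESeq2 (0.0369) or limma voom (0.0354). Bbc3, the gene of the death protein Puma, likewise named after its values were seen, moved the other way, at -1.11 ± 0.31 (adjusted p = 0.0139) and -1.02 ± 0.32 (adjusted p = 0.0193). Its calls were lost without Ki67-positive library 2 in the first comparison (adjusted p = 0.0535), and in the second without vismodegib library 3 (0.0522), without Ki67-negative library 3 (0.0591) or with Xist as a covariate (0.055).

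**Figure D4:**
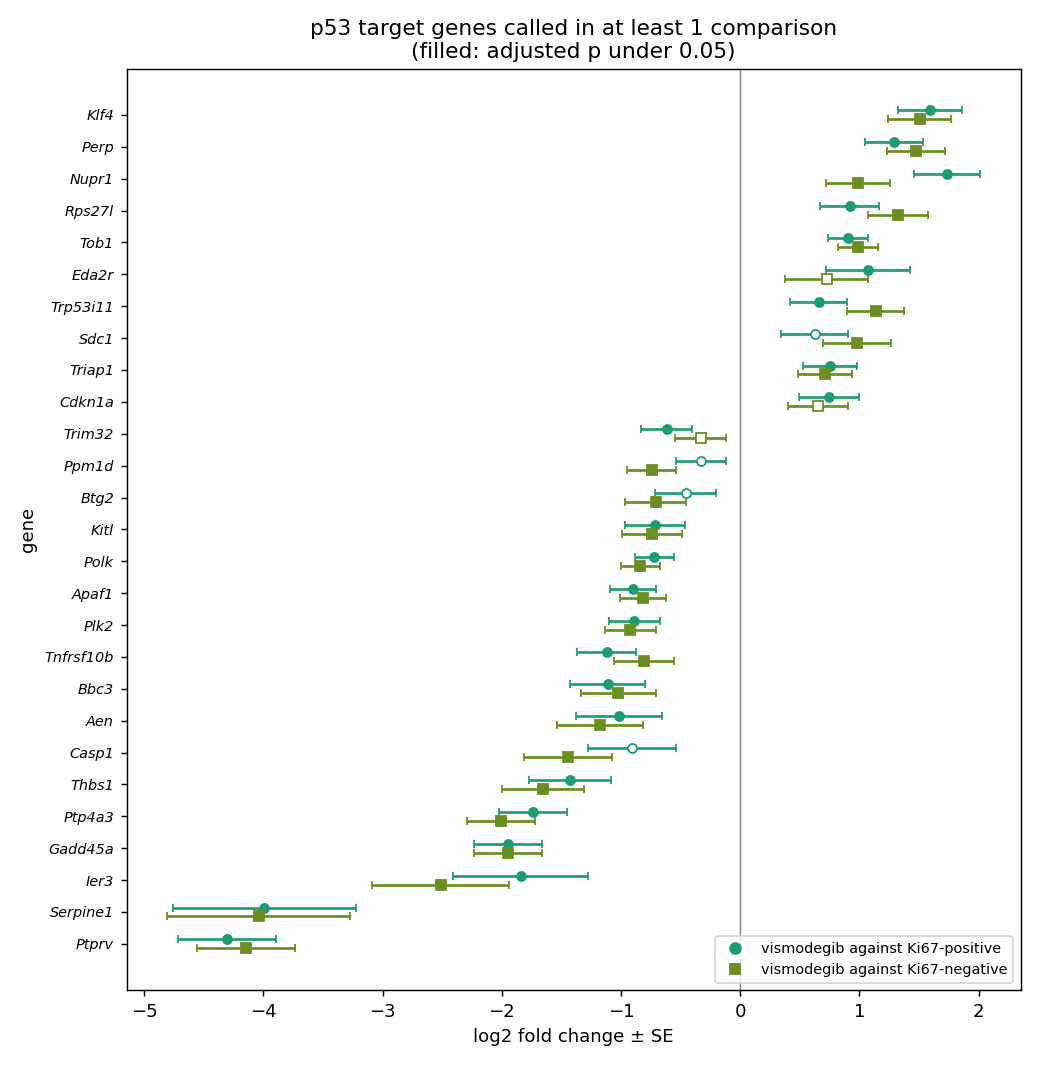
Log2 fold change with its standard error for the p53 target genes called in at least 1 vismodegib comparison. Circles compare with Ki67-positive and squares with Ki67-negative nests, and filled symbols passed an adjusted p of 0.05. Ptprv (-4.30 and -4.14) lies furthest left, and Perp (1.29 and 1.48) lies among the genes on the right.

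Of 30 regulators and partners of p53, 3 rose and 3 fell against Ki67-positive nests, and 4 rose and 4 fell against Ki67-negative nests. The shares called, 20% and 26.7%, are below those of all genes. The count in the first comparison was 4 to 7 over the alternatives. In the second it was 5 (without vismodegib library 5) to 11 when 1 library was left out. In the other settings it was 6 to 11, with 11 by DESeq2. Cdkn2a, whose Arf product holds Mdm2 away from p53 and whose p16 product inhibits cyclin-dependent kinases, gave 2, 0, 0, 0 and 1 counts in the vismodegib libraries, 5, 25, 22, 16 and 5 in Ki67-positive and 11, 13, 11, 9 and 21 in Ki67-negative libraries. All vismodegib libraries were thus lower than all untreated ones. The ratio of summed counts, 3 against 73 and 3 against 65, scaled by library size, was 0.0369 (95% exact interval of counting error 0.00744 to 0.112) and 0.0375 (0.00754 to 0.115). These intervals take no account of the spread between libraries. The gene passed the filter through the untreated libraries, as no vismodegib library held over 2 counts. The gene model joins both products. Between the untreated groups 0 of the 30 were called by edgeR, DESeq2 and limma voom. At an unadjusted p under 0.05 there were 4 of the 30, beside 1154 of all 17282 genes. Hipk2, a kinase that phosphorylates p53, rose 1.53-fold and 1.38-fold (log2 fold change 0.62 ± 0.15, adjusted p = 0.00468, and 0.46 ± 0.15, adjusted p = 0.0232). The second call ended when vismodegib library 1 (adjusted p = 0.0696) or 5 (0.0553) or Ki67-negative library 2 (0.0586) was left out, and with Xist as a covariate (0.0679). The span of Hipk2 overlaps Tbxas1 and 4930502C15Rik, whose reads may not be separable without strand.

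Genes that p63 is known to control in epidermis mostly rose among those called, while Trp63 itself did not pass. Of 31 tested, 16 rose and 5 fell against Ki67-positive nests, and 14 rose and 5 fell against Ki67-negative nests, which is 67.7% and 61.3% of the list, beside 26.0% and 31.9% of all genes. The median log2 fold change was 0.52 and 0.41. Dsp, the desmoplakin gene, rose 2.52-fold and 2.8-fold (log2 fold change 1.33 ± 0.15, adjusted p = 3.87e-06, and 1.48 ± 0.15, adjusted p = 1.14e-06), and Ripk4, a kinase gene of keratinocyte differentiation, rose by 1.31 and 1.37. Fras1, which encodes a basement membrane protein, fell by 3.59 and 3.63 on the log2 scale (SE 0.27 each, adjusted p = 1.17e-07 and 7.54e-08), and Bnc1, a basal keratinocyte transcription factor gene, fell by 2.80 and 2.88. The list includes Perp and several differentiation genes, and the suprabasal markers above moved with it (9 of 10 called higher against Ki67-positive and 10 of 10 against Ki67-negative nests). Their part in these counts was not tested. Between the untreated groups 0 of 31 were called by edgeR, DESeq2 and limma voom, and 0 had an unadjusted p under 0.05.

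**Figure D5:**
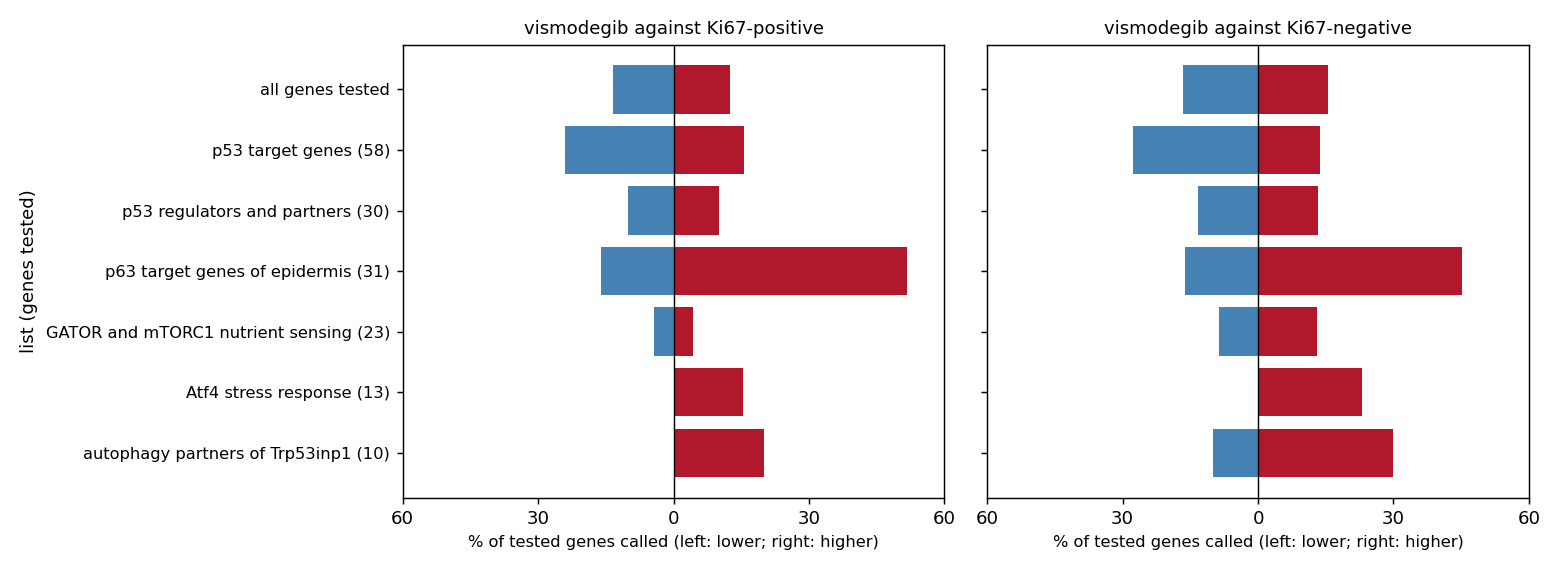
Share of tested genes called lower (left of 0) and higher (right of 0) in each vismodegib comparison, in percent, with all genes tested at the top. The lists drawn are p53 targets, p53 regulators, p63 targets, GATOR and mTORC1, Atf4 and autophagy genes. The multiciliogenesis and paralogue lists are not drawn. The left and right bars of the p63 target genes together make 67.7% and 61.3% called, against 26.0% and 31.9% of all genes.

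The GATOR complexes and mTORC1 are the nutrient-sensing machinery on which sestrins act. Of 23 genes of this branch, 1 rose and 1 fell against Ki67-positive nests, and 3 rose and 2 fell against Ki67-negative nests. The shares called, 8.7% and 21.7%, are below the 26.0% and 31.9% of all genes. The latter count of 5 dropped to 2 without vismodegib library 3 or without Ki67-negative library 3, and to 3 without vismodegib library 1 or 4 or Ki67-negative library 1 or 5 or with limma voom. Prkaa2, an AMP-activated kinase subunit gene that sestrins are known to act through, rose 4.71-fold and 6.06-fold (log2 fold change 2.23 ± 0.33, adjusted p = 7.16e-05, and 2.60 ± 0.34, adjusted p = 1.74e-05). Sesn3, counted in this list too, is described above.

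Of 13 tested genes of the Atf4 stress response, which also activates Sesn2, 2 rose and 0 fell against Ki67-positive nests and 3 rose and 0 fell against Ki67-negative nests. The shares called, 15.4% and 23.1%, are below the 26.0% and 31.9% of all genes. The first count ran from 1 to 3 over the alternatives. It was 1 without vismodegib library 4, Ki67-positive library 4 or Ki67-positive library 5, and with the stricter filter. Asns, the asparagine synthetase gene, rose by 0.89 and 0.78 (SE 0.22 each, adjusted p = 0.0057 and 0.012). Of 10 autophagy genes linked to Trp53inp1, 2 rose and 0 fell, and 3 rose and 1 fell, shares of 20% and 40% that lie below and above those of all genes. The first autophagy count ran from 1 to 3 over the alternatives. It was 1 without vismodegib library 4 or 5 or Ki67-positive library 2 or 5, or with total counts. The second was 1 without vismodegib library 4 and 2 without vismodegib library 3 or 5 or Ki67-negative library 2, 3 or 5. Map1lc3a, which encodes an LC3 protein of the autophagosome, rose by 0.94 and 1.08 (SE 0.21 each, adjusted p = 0.00231 and 0.000699). In each of these 3 lists 0 genes were called between the untreated groups by edgeR, DESeq2 and limma voom, with 1 GATOR gene, 0 Atf4 genes and 0 autophagy genes at an unadjusted p under 0.05.

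Across the 15 libraries the genes whose log2 CPM followed Trp53 most closely, among 10661 compared, were Ucp2 (Pearson r = 0.893), Adgrg1 (0.884) and the member Zmat3 (0.869). For Trp63 they were Slc39a9 (0.853), Lats1 (0.837) and Ywhag (0.834), and for Trp73 Wdr83 (0.87), Map11 (0.852) and Fhod1 (0.803). These values describe the libraries, which also differ in group, depth and the marker sums above.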

How the data were processed

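Reads were aligned with GSNAP to GRCm38, per the submitters' processing notes. The deposited counts are reads aligned uniquely to each gene model, and the deposited RPKM values are adjusted by a size factor, both per the file headers. The sources used here do not give strand use, annotation release or the aligner's version. Reads of overlapping genes may thus not be separable. Beyond the overlaps named above, Trp73, Gadd45a, Nupr1, Ptp4a3, Prkaa2, Rfx3 and Fras1 also overlap other annotated genes. RPKM served only to compare levels between genes. Symbols, coordinates and promoters come from RefSeq (GRCm38.p6), which named 31049 of 36528 identifiers. Genes were kept by filterByExpr (minimum count 10, total 15), scaled by TMM and tested in 1 fit of 15 libraries with the quasi-likelihood test of edgeR 4.0.16 (R 4.3.3, 12 residual degrees of freedom), two-sided, with Benjamini-Hochberg adjustment over all 17282 genes and a threshold of 0.05. The step was tested on simulated data. DESeq2 1.42.0, limma 3.58.1 (voom), other scalings and filters, the 2 groups alone, an Xist covariate and leaving out each library were alternatives. The members and the 8 pathway and 9 marker lists were chosen with earlier results of these data known, so no p-value was adjusted over a list alone and no list was tested as a set. Named were the members, up to 4 genes per pathway list with the smallest adjusted p in each comparison (not all are printed), and the 3 genes most like each family member. Where no library is tied to a culture or animal, p-values measure the spread between libraries, which may be partly technical.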

Additional observations from a re-analysis of the deposited data

Results flagged for a closer look

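The CPM values of the 10 members and Sesn3 were examined for a library far from the rest of its group, over 33 groups of 5 libraries, with Dixon's 95% critical value of 0.71 for the gap divided by the range. Chance marks about 1 in 20 groups. Trp53inp1 was 365.8 CPM in vismodegib library 4, where the nearest other vismodegib library had 160.7 (gap over range 0.884). Sesn3 was 12.9 CPM in vismodegib library 2, where the nearest other had 21.6 (0.776).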

How the results depend on the processing

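The 24 alternatives (15 of them leaving out 1 library) gave 240 values per comparison for the 10 members. Direction and side of the threshold were kept in 231 values against Ki67-positive nests, in 233 against Ki67-negative nests and in 229 between the untreated groups, and no member's call was lost. The same alternatives were run for the list counts and list genes after the data were seen. Leaving out 1 library gave 3 to 4 members called against Ki67-positive nests and 2 to 4 against Ki67-negative nests (4 without Ki67-negative library 2). Over the whole table, the 30 genes called between the untreated groups became 86 with DESeq2, 15 with limma voom and 0 with only the 2 groups compared, and 0 to 43 when 1 library was left out (0 without library 4 of the Ki67-positive or 3, 4 or 5 of the Ki67-negative group, 2 without Ki67-positive library 5 and 12 without Ki67-negative library 2). The sign of the log2 fold change turned, with no call, when 1 library was left out for Mdm4 (-0.11 to 0.0086) and Trp53inp1 (-0.55 to 0.0232) against Ki67-positive nests, for Trp63 (-0.0463 to 0.0886) and Ccng1 (-0.0855 to 0.13) against Ki67-negative nests, and for Trp73 (-0.12 to 0.0444), Zmat3 (-0.13 to 0.11, and 0.0043 with limma voom) and Trp53inp1 (-0.0629 to 0.29) between the untreated groups. The cause was not tested. No scaling moved the median of all genes by over 0.1 on the log2 scale. Cdkn2a gave no value under the stricter filter or with only the 2 groups compared. No paired analysis was possible because the labels give no replicate numbers. Low counts limit the precision for genes such as Sesn2 (32 to 117 counts) and Cdkn2a.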
